A study of Oryza sativa with 11 samples.

Results

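The gene families described here take part in making the plant cell wall. These are the cellulose synthases (CESA), the cellulose synthase-like families (CSL) and the COBRA-like proteins of rice. They were taken by name, as genes with a RefSeq symbol or synonym of the form CESA, CSLA to CSLH, BC1, BC1L or COBL, where at least 1 probe set of the array was assigned to that gene alone. Of 41 genes with such a name, 34 were measured, out of 17905 genes with a probe set. The measured genes are 6 CESA of the primary wall (CESA1, CESA2, CESA3, CESA5, CESA6 and CESA8), 3 CESA of the secondary wall (CESA4, CESA7 and CESA9), 20 CSL genes, 4 COBRA-like genes and 1 gene, bHLH081, which carries the synonym BC1 but encodes a bHLH transcription factor. CSLA3, CSLA4, CSLE6, CSLF3, CSLF4, CSLF9 and BC1L7 had no probe set of their own and were not analysed here.

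The study compared root tips of a salt-tolerant and a salt-sensitive indica rice under salt and in control solution. FL478 is the tolerant genotype, an inbred line from a cross of IR29 with the landrace Pokkali, and IR29 is its sensitive parent. Salt-stressed plants received NaCl and CaCl2, raised over 3 days from day 22 after germination to 7.4 dS/m (about 60 mM NaCl) and held for 5 days, while control tanks stayed at 1.1 dS/m, and the last 2 cm of the roots were collected on day 30. There were 3 arrays of FL478 under salt, 3 of FL478 in control, 3 of IR29 under salt and 2 of IR29 in control, each labelled as a separate biological replicate. The labels call the culture hydroponic and the methods describe sand tanks.

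Cellulose is spun out as microfibrils by rosettes of CESA proteins that move in the plasma membrane. A rosette holds different CESA isoforms, and plants use one set of isoforms in the primary wall of growing cells and another in the thick secondary wall laid down in xylem and fibres after growth ends. In rice, mutants of CESA4, CESA7 or CESA9 have brittle culms, as do mutants of BC1, a COBRA-like protein anchored to the cell surface by a lipid. The CSL families make other glucans and mannans with related catalytic proteins. A root tip holds the meristem, the elongation zone and, behind them, maturing cells with root hairs and xylem, so both kinds of wall are made in the tissue sampled.

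Values are linear signal intensities, and changes are differences of log2(signal + 32) with their standard error (SE) from a limma fit over all 57258 probe sets. A gene was called where the p adjusted over all probe sets was under 0.10, and an unadjusted p under 0.05 is given where it falls short of this. The median signal of an array lay between 48.8 and 61.3, and each array had 36.6% to 41.9% of its probe sets under 32, where the added 32 shrinks differences. Of the 34 genes, 33 were above the median level over all arrays and 31 were at 32 or more on every array. CSLD4 was under 32 on 1 array, CSLD5 on 3 and bHLH081 on all 11, with a highest signal of 18. Over all probe sets, the correlation was 0.963 to 0.978 between arrays of 1 group and 0.945 to 0.975 between arrays of different groups. The log2 ratio of the 3' to the 5' probe set of GAPDH, a measure of RNA integrity and labelling, averaged 0.768 ± 0.138 in FL478 under salt against 0.578 ± 0.0601 in FL478 control, and 0.877 ± 0.161 in IR29 under salt against 0.654 ± 0.00855 in IR29 control (SD). Whether a genotype's sequence matches its probes equally well was not tested, and this touches every difference between FL478 and IR29. In whole root tips, fewer cells of a type and less RNA per cell cannot be told apart.

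Among the primary wall CESA genes, CESA5 differed most between the genotypes. Its signals were 5840.4, 4555 and 7956 in FL478 under salt, against 2531, 2748 and 2177 in IR29 under salt. In control solution they were 4979.8, 5748 and 5295 in FL478, against 2131 and 2206.5 in IR29. Every FL478 array was above every IR29 array in both conditions. The difference was 1.26 ± 0.20 on the log2 scale under salt (adjusted p = 0.0188) and 1.29 ± 0.23 in control (adjusted p = 0.0543), which is a 2.39-fold and a 2.44-fold higher level in FL478. Of all probe sets, 0.597% were called between the genotypes in control and 1.75% under salt. CESA5 did not pass the test between salt and control in FL478 (0.16 ± 0.20, adjusted p = 0.887) or in IR29 (0.19 ± 0.23, adjusted p = 0.984), and its 2 salt responses differed by -0.03 ± 0.31 (adjusted p = 1.00). With only the 2 groups compared in the fit, the adjusted p was 0.115 under salt and 0.113 in control, and the call in control was also lost when any 1 of the 5 control arrays or IR29 salt replicate 1 was left out, with a difference of 1.23 to 1.33 and an adjusted p of 0.101 to 0.327.

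CESA1, CESA3 and CESA8, regarded as the main primary wall isoforms of rice, also gave higher signals in FL478 than in IR29 under salt, without passing the test. CESA1 had 10603, 12619.6 and 14939 in FL478 under salt, against 8297, 8575 and 9346 in IR29 under salt. CESA3 had 20879.7, 18604 and 20582 in FL478 under salt, against 16208, 17234 and 15702 in IR29 under salt. CESA8 had 11540.4, 10896 and 11677 in FL478 under salt, against 9139.6, 9510.1 and 9234 in IR29 under salt. For each of these 3 genes the groups did not overlap under salt. The differences were 0.53 ± 0.16 for CESA1 (unadjusted p = 0.00944, adjusted p = 0.223), 0.29 ± 0.13 for CESA3 (unadjusted p = 0.0548, adjusted p = 0.458) and 0.29 ± 0.13 for CESA8 (unadjusted p = 0.0488, adjusted p = 0.441). A second, dimmer probe set of CESA3 gave 0.77 and was called (adjusted p = 0.0386), while the second probe set of CESA1 gave 0.49 (adjusted p = 0.347).

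In control solution the genotypes lay closer together for these genes. CESA1 averaged 11064 ± 768 in FL478 control and 9611 ± 1086 in IR29 control (SD, n = 3 and 2), a difference of 0.20 ± 0.18. CESA3 averaged 16485 ± 645 in FL478 control and 14761 ± 961 in IR29 control, a difference of 0.16 ± 0.15. CESA8 averaged 10827 ± 741 in FL478 control and 10783 ± 204 in IR29 control, and its difference was 0.00 ± 0.14. The second probe set of CESA1 ran the other way in control, at -0.18. None of the 3 had an unadjusted p under 0.05 in control. Whether a difference under salt exceeds that in control is the test of the salt responses, which gave 0.32 ± 0.25 for CESA1, 0.13 ± 0.20 for CESA3 and 0.29 ± 0.19 for CESA8, all with an adjusted p of 1.00. The second probe set of CESA1 gave 0.67 for this difference (unadjusted p = 0.0389, adjusted p = 1.00).

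CESA6 and CESA2, like CESA5 members of the primary wall group, completed the pattern under salt. CESA6 had 11989, 13159 and 15660.1 in FL478 under salt, against 9635, 11465 and 10299 in IR29 under salt, a difference of 0.37 ± 0.16 (unadjusted p = 0.0396, adjusted p = 0.408). The CESA2 probe set read 284, 390.5 and 216.5 in FL478 under salt, against 197.5, 216 and 198 in IR29 under salt, a difference of 0.45 ± 0.29 (unadjusted p = 0.153, adjusted p = 0.634). The lowest FL478 array of CESA2 was 216.5 and the highest IR29 array 215.6, so its groups were apart by less than the spread within them. A second probe set of CESA2, with a mean signal of 37.0, ran the other way at -0.74 (unadjusted p = 0.0357, adjusted p = 0.391), and the mean of both gave -0.15.

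All 6 primary wall CESA genes and all 3 secondary wall CESA genes had a higher mean in FL478 than in IR29 under salt, with a median log2 difference of 0.37 over the 9 (range 0.21 to 1.26) against -0.01 over all probe sets. For 8 of the 9, CESA7 being the exception, every FL478 array was above every IR29 array. Among all probe sets 7.86% were apart in this direction, and 9.96% of the 28629 whose mean was above the median. Of the 9, 1 was called and 5 had an unadjusted p under 0.05 in this direction, against 5.49% of all probe sets. These 9 values come from 1 set of 6 arrays and do not count as independent observations. In control, 8 of the 9 had a higher mean in FL478, with a median of 0.16, and for 4 of them the arrays were apart, against 11.3% of all probe sets. Over all 34 genes, 7 had an unadjusted p under 0.05 between the genotypes in control and 10 under salt, in either direction, beside 7.92% and 11.2% of all probe sets. The arrays of the genotypes did not overlap for 12 of the 34 in control and 15 under salt, beside 23.9% and 15.6%.

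**Figure D1:**
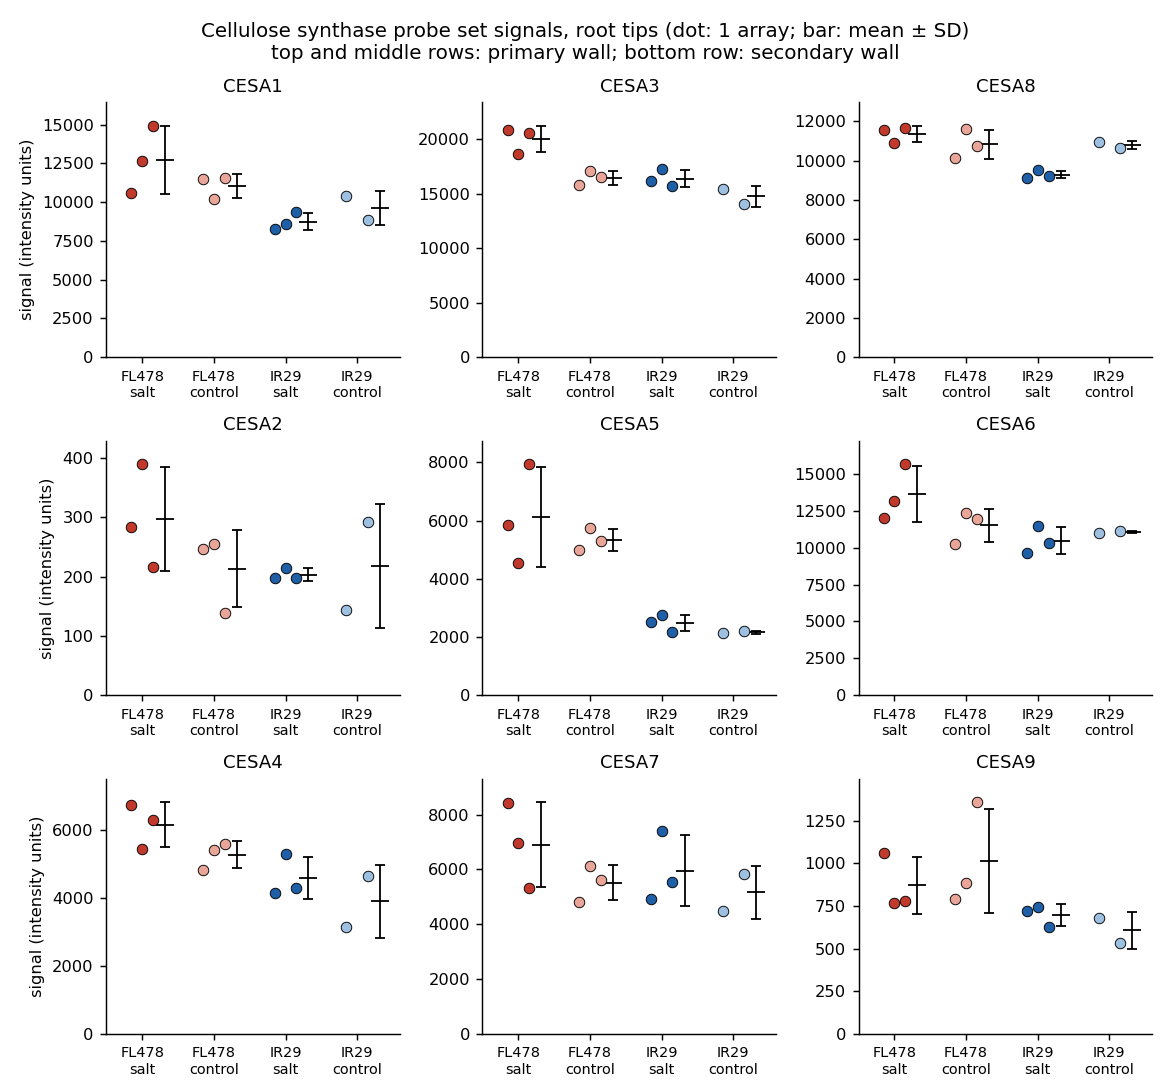
Signal of the brightest probe set of each CESA gene on the 11 arrays (y axes, linear intensity units from 0), with FL478 salt, FL478 control, IR29 salt and IR29 control along the x axis, 1 dot per array and a bar for mean ± SD. The FL478 arrays of CESA5 (4555 to 7956) all lie above its IR29 arrays (2131 to 2748), and in the secondary wall row CESA7 shows FL478 and IR29 arrays overlapping under salt.

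No primary wall CESA gene passed the test for salt against control in either genotype. In FL478 all 6 had a higher mean under salt (CESA5 gave -0.05 without FL478 salt replicate 3), with log2 differences from 0.07 for CESA8 to 0.43 for CESA2 and a median of 0.21. In IR29, 2 of the 6 had a higher mean under salt and 4 a lower one, with a median of -0.05. With the GAPDH ratio as a covariate, CESA5 gave 0.005 in FL478 and 0.006 in IR29, while CESA1 gave 0.33 in FL478 and 0.03 in IR29. CESA3 was the gene of this group with the smallest p in FL478. It averaged 20022 ± 1237 in FL478 under salt and 16485 ± 645 in FL478 control (SD, n = 3 each), with the arrays of the 2 groups apart and a difference of 0.28 ± 0.13 (unadjusted p = 0.0618, adjusted p = 0.582), and its second probe set gave 0.50 (unadjusted p = 0.00604, adjusted p = 0.310). CESA8 averaged 9295 ± 193 in IR29 under salt and 10783 ± 204 in IR29 control, again with the arrays apart, and differed by -0.21 ± 0.14 (adjusted p = 0.924). The second probe set of CESA1 gave -0.55 in IR29 (unadjusted p = 0.0261, adjusted p = 0.725), where the brightest one gave -0.13. The difference of the 2 salt responses had a median of 0.30 over the 6 genes, and none had an unadjusted p under 0.05 on the brightest probe set.

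Genes of dividing cells (cyclin B, CDKB, MCM and PCNA genes, 14 measured) had median salt responses of the same signs, and none passed the test. Of the 14, 13 had a higher mean under salt in FL478 (median 0.10) and 1 in IR29 (median -0.19), and the difference of the responses was above 0 for 13 (median 0.26). Of all probe sets, 50.1%, 50.4% and 50.2% were above 0 in these comparisons. Salt and control arrays were apart for 2 of the 14 in FL478 and 2 in IR29, beside 14.0% and 21.4% of all probe sets. These 14 genes were read on the same arrays and do not count as independent observations. Their summed signal was 13354 to 16969 in FL478 under salt against 12198 to 14589.7 in FL478 control, and 12384 to 16430.2 in IR29 under salt against 14599 to 18349 in IR29 control, so the ranges overlapped. Between the genotypes, 12 of these 14 genes had a lower mean in FL478 in control (median -0.27), and 8 a higher mean under salt (median 0.02). Of all probe sets, 51.1% were lower in control and 48.8% higher under salt. The primary wall CESA medians for FL478 minus IR29 were 0.11 in control and 0.41 under salt. No marker of this list was under 32 on every array, but MCM8 read 2.1 to 49.8 and CycB1-1 11.9 to 100.4. MCM8 was the 1 gene with a higher mean under salt in IR29. Their part in the CESA values was not tested.

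The secondary wall CESA genes and BC1 gave higher means in FL478 than in IR29 in both conditions, and none passed the test. CESA4 had 6754, 5442.5 and 6319 in FL478 under salt, against 4164, 5294 and 4299 in IR29 under salt. In control it had 4841, 5429.7 and 5601 in FL478, against 3149 and 4659 in IR29. The arrays were apart in both conditions, with differences of 0.43 ± 0.19 under salt (unadjusted p = 0.0448, adjusted p = 0.426) and 0.46 ± 0.21 in control (unadjusted p = 0.0525, adjusted p = 0.639). Its second probe set gave 0.60 under salt (adjusted p = 0.250) and 0.44 in control.

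CESA9 had 1062, 769.9 and 781 in FL478 under salt, against 719, 747 and 624 in IR29 under salt, a difference of 0.30 ± 0.23 (adjusted p = 0.701). In control it had 793, 883.5 and 1360.2 in FL478, against 682 and 530.5 in IR29, a difference of 0.68 ± 0.25 (unadjusted p = 0.0221, adjusted p = 0.486). The 1360.2 of FL478 control replicate 3 stood above all other arrays of this gene. CESA7 had 8437, 6951 and 5336 in FL478 under salt, against 4916, 7418 and 5533 in IR29 under salt, and the groups overlapped. It differed by 0.21 ± 0.22 under salt and by 0.10 ± 0.25 in control, each within 1 SE of 0. For BC1, which affects how cellulose is laid down in secondary walls, the signals were 1835, 1229 and 1889 in FL478 under salt, against 843, 1143 and 1305 in IR29 under salt. In control they were 1269, 1487 and 2075.5 in FL478, against 774 and 1151 in IR29. The differences of BC1 were 0.57 ± 0.27 under salt (unadjusted p = 0.0562, adjusted p = 0.46), where the arrays overlapped, and 0.72 ± 0.30 in control (unadjusted p = 0.0355, adjusted p = 0.569), where they were apart. Without IR29 control replicate 1 the differences in control were 0.44 for BC1 and 0.18 for CESA4.

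None of these 4 genes passed the test for salt against control. In FL478 the difference between salt and control was 0.22 ± 0.19 for CESA4, 0.30 ± 0.22 for CESA7, -0.19 ± 0.23 for CESA9 and 0.04 ± 0.27 for BC1. In IR29 it was 0.25 ± 0.21 for CESA4, 0.19 ± 0.25 for CESA7, 0.20 ± 0.25 for CESA9 and 0.19 ± 0.30 for BC1. Salt and control arrays overlapped for each of the 4 in each genotype, and the smallest adjusted p was 0.758. Of these 8 values, 4 changed sign in fits that left out 1 array. Without IR29 control replicate 1, whose CESA4 signal of 3149 was the lowest of that gene, the IR29 value was -0.03 for CESA4 and -0.09 for BC1. The CESA9 value in FL478 was 0.04 without FL478 control replicate 3, and that of BC1 in FL478 lay between -0.11 and 0.24 as 1 array was left out. With the GAPDH ratio as a covariate, CESA4 gave 0.08 in each genotype, and CESA7 gave 0.09 in FL478 and -0.06 in IR29. CESA9 then gave -0.31 in FL478 and 0.05 in IR29, and BC1 gave 0.07 in FL478.

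Isoforms that share a rosette are needed side by side, and pairs of CESA genes were therefore compared from array to array, over all 11 arrays and after the group means were removed. BC1, which is not a CESA isoform, was paired with the secondary wall genes as well. Pairs of other probe sets were not compared, so variation between arrays that many genes share was not tested. Of 9 pairs, 6 among CESA4, CESA7, CESA9 and BC1 and 3 among CESA1, CESA3 and CESA8, none passed an adjusted p of 0.05 in a two-sided exact permutation of arrays within groups (432 permutations, smallest possible p = 0.00231). CESA3 and CESA8 gave the highest value (r = 0.78, rho = 0.75, exact p = 0.00926 and 0.0116, adjusted 0.0833 and 0.104), and r was 0.76 without the 2 arrays farthest from the median of CESA3. CESA4 went with BC1 (r = 0.72, rho = 0.70, exact p = 0.0579 and 0.0602, adjusted 0.243 and 0.271, r = 0.66 without the 2 farthest arrays) and with CESA7 (r = 0.68, rho = 0.70, exact p = 0.081 and 0.0995, adjusted 0.243 and 0.299, r = 0.65). CESA9 and CESA1 had no r above 0.33 with their partners over all arrays. CESA9 with CESA4 gave 0.15, or 0.60 without the 2 IR29 control arrays, and for CESA9 with BC1 the sign turned without the 2 farthest arrays (0.33 with them and -0.16 without).

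**Figure D2:**
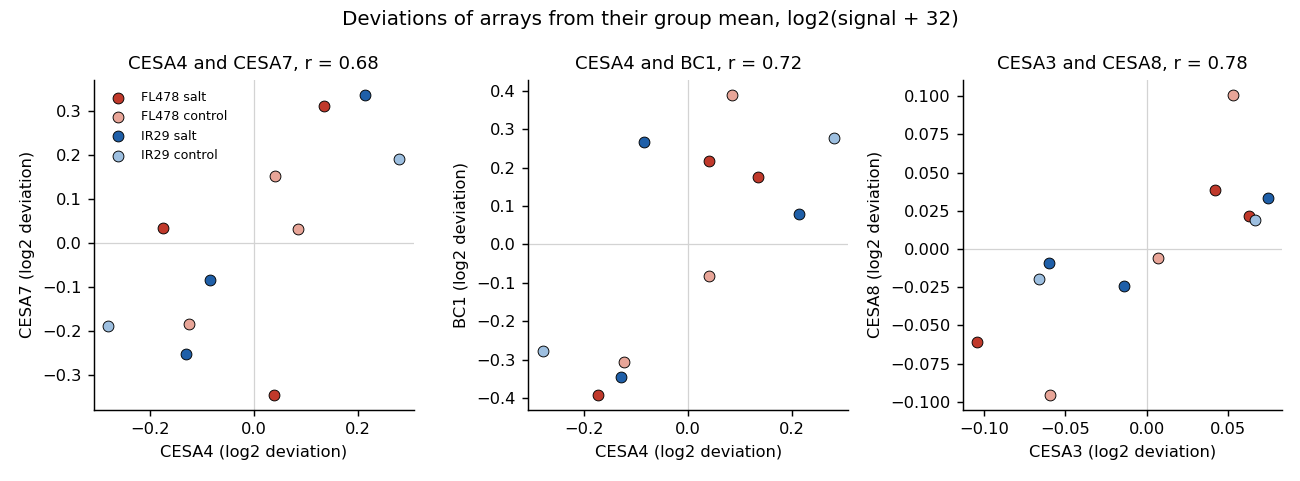
Deviation of each of the 11 arrays from the mean of its group on the log2(signal + 32) scale, for CESA4 (x axis) with CESA7 and with BC1, and for CESA3 (x axis) with CESA8, with 1 dot per array coloured by group. Points run upward in all 3 panels (r = 0.68, 0.72 and 0.78), and the CESA3 and CESA8 deviations span a narrower range than the others.

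Over all 34 genes, salt against control gave no call in FL478, in IR29 or averaged over both genotypes, where 0.169%, 0.00524% and 0.547% of all probe sets were called. With the GAPDH ratio as a covariate, no probe set of the array was called in any of these comparisons. In FL478, 24 of the 34 had a higher mean under salt (median 0.15), and in IR29, 19 (median 0.04), against medians of 0.00 over all probe sets. An unadjusted p under 0.05 was reached by 2 genes in FL478 and by 6 in IR29, beside 8.97% and 6.18% of all probe sets, and by 6 genes in the average over both, beside 10.3%. Salt and control arrays did not overlap for 8 of the 34 in FL478 and 12 in IR29, beside 14.0% and 21.4% of all probe sets. In simulated data of this size, log2 changes of 1 were called for 26.0% of genes in FL478 and 14.4% in IR29, and changes of 2 for 91.6% and 84.8%. Spreads in the simulation were shuffled over all probe sets, and changes were put in those above the median level. The spread of the 34 genes was not matched, so these shares need not hold for them. Differences of the 34 genes were smaller than 1 in size except for CSLF2 in FL478 and CSLE1 and BC1L9 in IR29.

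**Figure D3:**
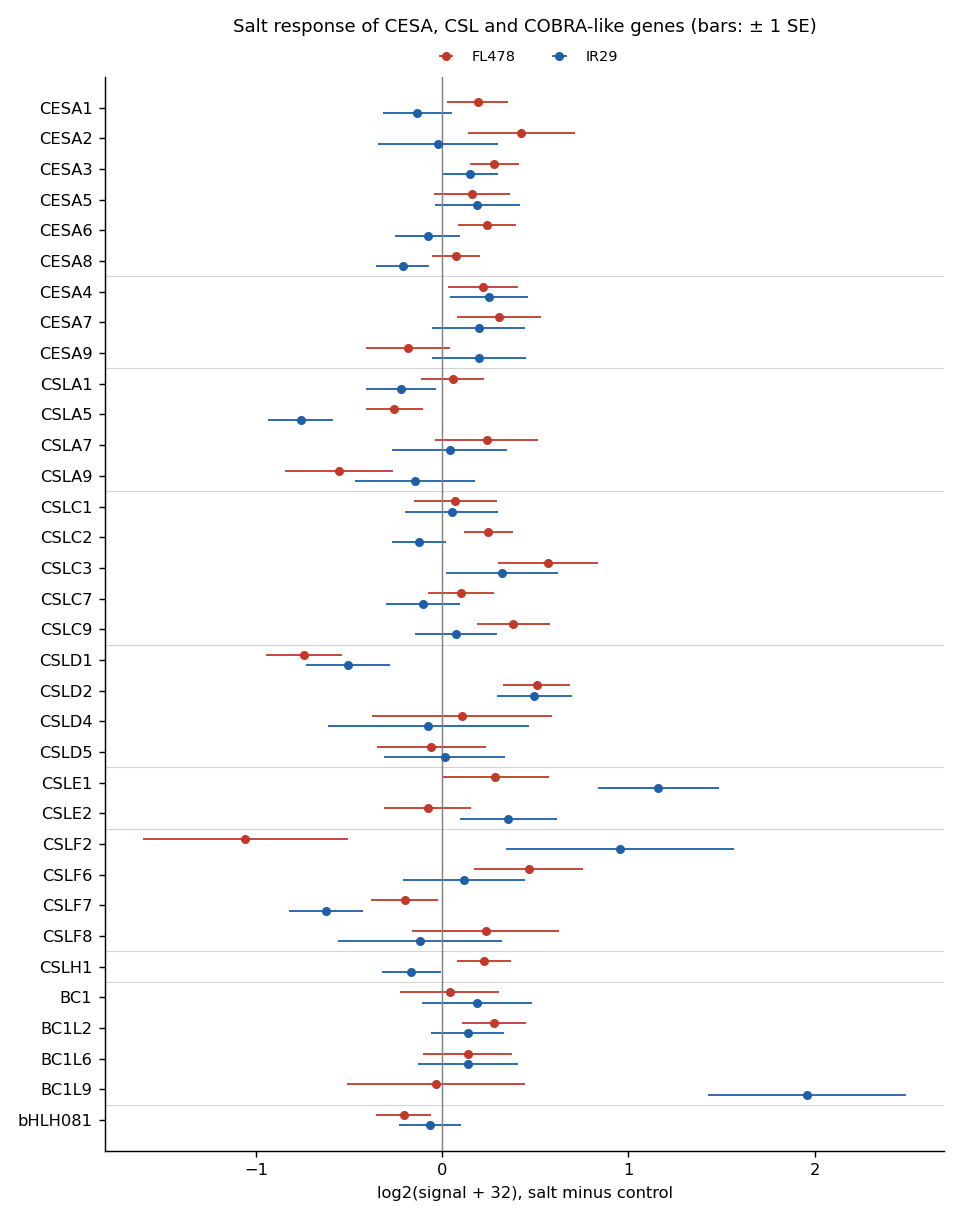
Salt minus control on the log2(signal + 32) scale (x axis) for each of the 34 genes (rows, grouped by family) in FL478 and IR29, as dots with ± 1 SE. Most dots lie within 0.5 of 0, BC1L9 is at 1.96 in IR29 and at -0.03 in FL478, CSLF2 is at 0.96 in IR29 and at -1.06 in FL478, and no dot carries the ring that marks an adjusted p under 0.10.

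CSLD1 and CSLD2, of the CSL family closest to CESA, had opposite signs that were the same in the 2 genotypes. CSLD1, which rice root hairs need to elongate, had 149.9, 206 and 204 in FL478 under salt, against 265, 393.5 and 347 in FL478 control. In IR29 it had 215.5, 215 and 240.0 under salt, against 269 and 405 in control. The salt arrays were below the control arrays in each genotype, with differences of -0.74 ± 0.20 in FL478 (unadjusted p = 0.00439, adjusted p = 0.279) and -0.51 ± 0.23 in IR29 (unadjusted p = 0.0495, adjusted p = 0.806), and -0.62 ± 0.15 averaged over both (unadjusted p = 0.00213, adjusted p = 0.174). The IR29 difference was -0.78 without IR29 control replicate 1, -0.24 without IR29 control replicate 2 and -0.29 with the GAPDH ratio as a covariate. The averaged difference was called when only probe sets above the median level were fitted. The 1 gene measured from the root hair list, SRH2 (synonym XXT1), did not pass the test in FL478 (0.25) or IR29 (-0.16). Whether SRH2 signal follows root hair number is not known from these data, and a part of root hair number in the CSLD1 values was not tested.

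CSLD2 had 1170.4, 1546 and 1573 in FL478 under salt, against 993.5, 998 and 972 in FL478 control. In IR29 it had 1839.8, 2356 and 1849.8 under salt, against 1624 and 1228.5 in control. All salt arrays were above the control arrays of their genotype, with differences of 0.51 ± 0.18 in FL478 (unadjusted p = 0.0186, adjusted p = 0.427) and 0.49 ± 0.20 in IR29 (unadjusted p = 0.0349, adjusted p = 0.767), and 0.50 ± 0.14 averaged over both (unadjusted p = 0.00419, adjusted p = 0.217). CSLD2 was also lower in FL478 than in IR29, by arrays that did not overlap in either condition, at -0.49 ± 0.18 under salt (unadjusted p = 0.0223, adjusted p = 0.321) and -0.50 ± 0.20 in control (unadjusted p = 0.0322, adjusted p = 0.552). Without IR29 control replicate 2 the salt difference in IR29 was 0.30, and without IR29 control replicate 1 the genotype difference in control was -0.31. CSLD4, which shapes leaf width in rice, read 161.8 to 256 on the 6 FL478 arrays and 28.1 to 184.2 on the 5 IR29 arrays, with differences of 1.11 ± 0.48 under salt (unadjusted p = 0.0447, adjusted p = 0.426) and 0.93 ± 0.54 in control. Without IR29 salt replicate 1 the difference under salt was 0.64. Its probe set is of a kind that can share sequence with other genes, as is that of CSLC7, so both signals are uncertain. CSLD5 stayed between 21.4 and 98.5 on all arrays.

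CSLA proteins make mannan backbones. CSLA5 had the smallest p of all 34 genes for salt in IR29. It had 159, 159 and 121 in IR29 under salt, against 283 and 255 in IR29 control, and 197, 199.8 and 169 in FL478 under salt, against 247, 243 and 205 in FL478 control. Salt arrays were below control arrays in each genotype. The difference was -0.76 ± 0.17 in IR29 (unadjusted p = 0.00131, adjusted p = 0.414), -0.26 ± 0.15 in FL478 (adjusted p = 0.686) and -0.51 ± 0.12 averaged over both (unadjusted p = 0.00133, adjusted p = 0.144). With an offset of 64, a floor of 32 or only the probe sets above the median level, the averaged difference was called. CSLA1, whose RefSeq entry also lists the synonym CSLA9, averaged 4052 ± 545 in FL478 under salt and 3195 ± 351 in IR29 under salt (SD, n = 3 each), a difference of 0.34 ± 0.17 (adjusted p = 0.508). CSLA7 ranged over 769 to 1658 and its groups overlapped in all comparisons, and CSLA9 ranged over 69.3 to 247.5, with lower arrays in FL478 than in IR29 under salt (-0.53 ± 0.29, adjusted p = 0.554).

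CSLC proteins, which in Arabidopsis make the glucan backbone of xyloglucan, held the other call between the genotypes. CSLC2 had 2532, 2595 and 2519 in FL478 under salt, against 1695, 1791 and 1597 in IR29 under salt. In control it had 2274, 2166.5 and 1999 in FL478, against 1780.3 and 1921 in IR29. All FL478 arrays were above the IR29 arrays of the same condition, and the 3 FL478 salt arrays lay between 2519 and 2595. The difference was 0.58 ± 0.13 under salt (adjusted p = 0.0862), or 1.5-fold, and 0.21 ± 0.15 in control (adjusted p = 0.816). The call under salt was lost in 10 of the 11 fits that left out 1 array, all but that without IR29 salt replicate 2, with adjusted p up to 0.266, and with only the groups compared (adjusted p = 0.211). Between the 2 salt responses of CSLC2 the difference was 0.37 ± 0.20 (unadjusted p = 0.0889, adjusted p = 1.00).

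CSLC9 resembled CSLC2 under salt, with 1259.8, 1392 and 1393 in FL478 under salt, against 737, 1253 and 827 in IR29 under salt, and differed by 0.54 ± 0.20 (unadjusted p = 0.0208, adjusted p = 0.312). IR29 salt replicate 2 at 1253 stood above the other IR29 arrays. CSLC7 and CSLC1 differed between the genotypes by 0.17 ± 0.18 and -0.25 ± 0.22 under salt, both with overlapping arrays. CSLC3 had the largest mean difference between salt and control of the family, 0.57 ± 0.27 in FL478 (unadjusted p = 0.0617, adjusted p = 0.581) and 0.32 ± 0.30 in IR29. All 5 CSLC genes had a higher mean under salt in FL478 (median 0.25), and 3 of 5 in IR29 (median 0.05).

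**Figure D4:**
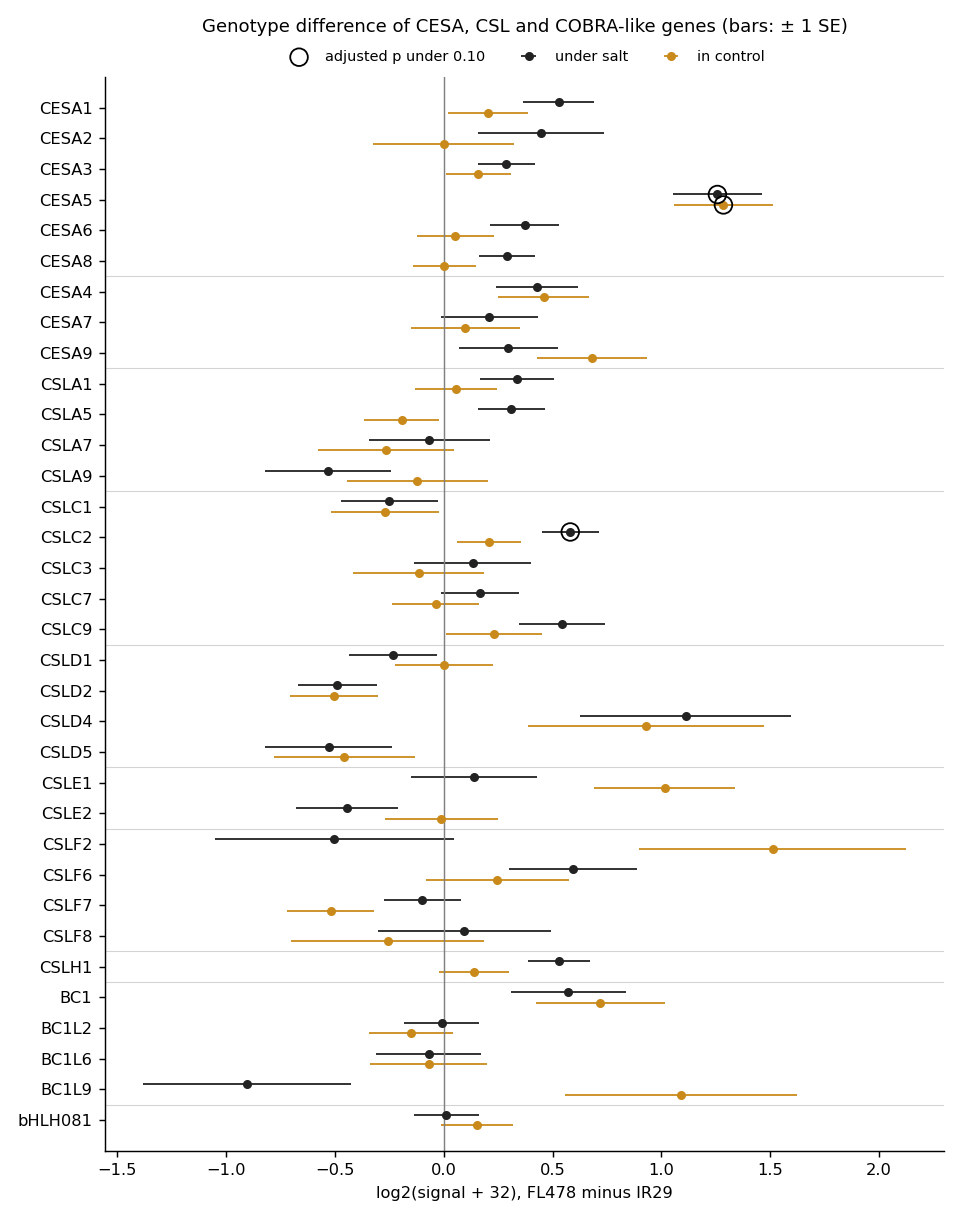
FL478 minus IR29 on the log2(signal + 32) scale (x axis) for each of the 34 genes (rows, grouped by family), under salt and in control, as dots with ± 1 SE and a ring around each value with an adjusted p under 0.10. Rings mark CESA5 in both conditions (1.26 and 1.29) and CSLC2 under salt (0.58), all 9 CESA dots for salt lie right of 0, and CSLF2 and BC1L9 change side between the conditions.

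CSLF proteins, and CSLH in barley, make mixed-linkage glucan, a polysaccharide typical of grass walls. CSLF6, the main enzyme of this kind in rice, averaged 6715 ± 1139 in FL478 under salt and 4504 ± 1186 in IR29 under salt (SD, n = 3 each), with overlapping arrays and a difference of 0.59 ± 0.29 (adjusted p = 0.495). CSLH1 had 3918, 3357 and 4175 in FL478 under salt, against 2537, 2665 and 2668.5 in IR29 under salt, a difference of 0.53 ± 0.14 (unadjusted p = 0.00423, adjusted p = 0.153). In control it had 3255, 3174 and 3316 in FL478, against 3216 and 2701 in IR29. FL478 salt arrays were thus all above FL478 control arrays and IR29 salt arrays all below IR29 control arrays, while the test of that opposition gave 0.39 ± 0.22 (unadjusted p = 0.1, adjusted p = 1.00). CSLH1 under salt was called with an offset of 64, with a floor of 32, with an intensity trend and with dim probe sets left out.

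CSLF2, CSLF8 and CSLF9 lie next to each other in the RefSeq annotation, with CSLF4 and CSLF3 beyond 1 further coding gene. CSLF2 had 410.4, 146 and 583 in FL478 under salt, against 829, 1242.5 and 367 in FL478 control, and 562, 419 and 482 in IR29 under salt, against 129 and 409 in IR29 control. The FL478 control arrays alone spread over 367 to 1242.5. Its salt difference was -1.06 ± 0.55 in FL478 and 0.96 ± 0.61 in IR29, and the difference of these was -2.01 ± 0.82 (unadjusted p = 0.0346, adjusted p = 1.00). In control CSLF2 differed between FL478 and IR29 by 1.51 ± 0.61 (unadjusted p = 0.0335, adjusted p = 0.558). Without IR29 control replicate 1 these last 2 values were -1.28 and 0.78. CSLF8, its neighbour, differed between salt and control by 0.23 ± 0.40 in FL478 and -0.12 ± 0.44 in IR29. CSLF7 had 204, 239 and 181 in IR29 under salt, against 321 and 354 in IR29 control, with the arrays apart (-0.63 ± 0.20, unadjusted p = 0.0106, adjusted p = 0.619). In FL478 its arrays overlapped (-0.20 ± 0.18), and in control the gene was lower in FL478 than in IR29 (-0.52 ± 0.20, unadjusted p = 0.0263, adjusted p = 0.512).

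Of the CSLE genes, CSLE1 had 315, 571 and 418 in IR29 under salt, against 137 and 213.5 in IR29 control. The arrays were apart, with a difference of 1.16 ± 0.32 (unadjusted p = 0.00491, adjusted p = 0.512), or 2.24-fold. In FL478 it had 550.0, 452 and 415 under salt, against 278, 339.9 and 571 in control, which overlapped (0.29 ± 0.29). In control the gene was higher in FL478 than in IR29 by 1.02 ± 0.32 (unadjusted p = 0.0105, adjusted p = 0.37), and under salt the genotypes overlapped. CSLE2 gave 0.35 for salt in IR29 (adjusted p = 0.941) and -0.08 in FL478, and its 3 probe sets disagreed in sign in FL478.

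BC1L9 had the largest measured salt difference of the COBRA-like genes and of all 34. It had 5293, 2095 and 4483 in IR29 under salt, against 665 and 1275 in IR29 control, with the arrays apart. In FL478 it had 2691, 1018 and 2701 under salt, against 2068.5, 2809 and 1372 in control, and these overlapped. The difference was 1.96 ± 0.53 in IR29 (unadjusted p = 0.00429, adjusted p = 0.512), or 3.89-fold, and -0.03 ± 0.48 in FL478, and the responses differed by -1.99 ± 0.72 (unadjusted p = 0.0193, adjusted p = 1.00). A second, dimmer probe set gave 1.54 in IR29 (unadjusted p = 0.00843), -0.08 in FL478 and -1.62 for the difference of the responses (unadjusted p = 0.0284). No probe set of the array was called for the difference of the responses, while 4.53% had an unadjusted p under 0.05. BC1L2, which lies next to BC1 in the annotation, and BC1L6 stayed between 96.8 and 167 and between 190.9 and 357 with overlapping groups.

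**Figure D5:**
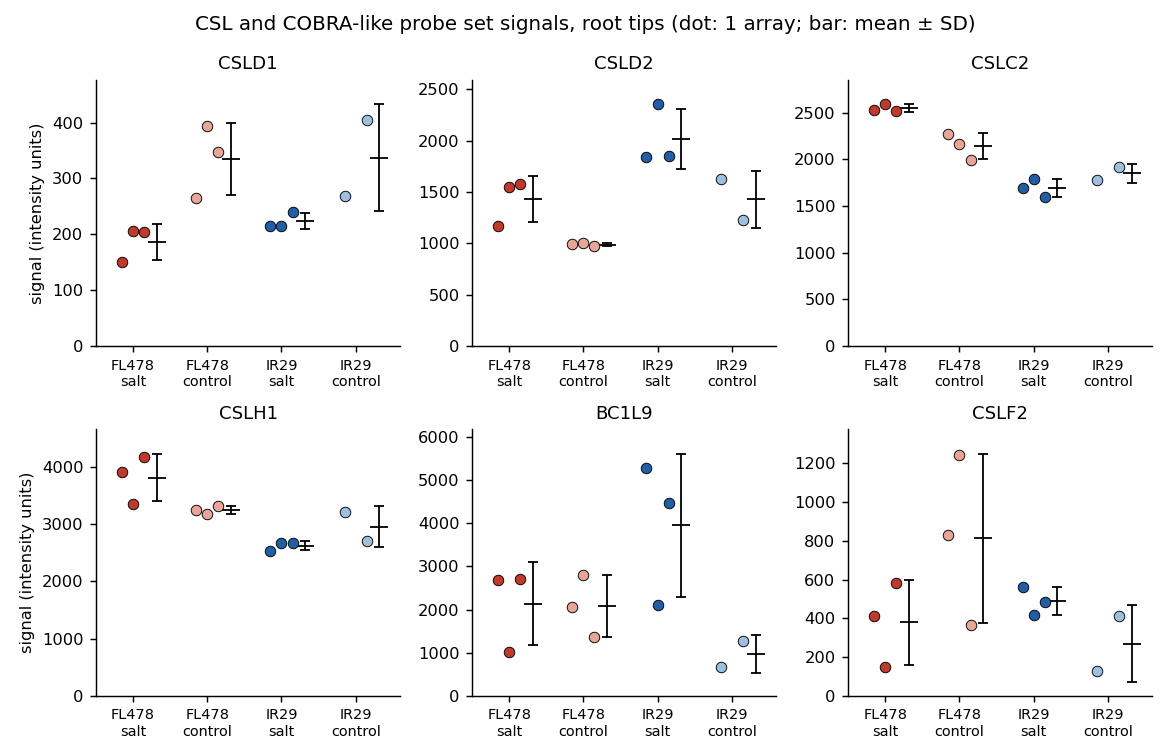
Signal of CSLD1, CSLD2, CSLC2, CSLH1, BC1L9 and CSLF2 on the 11 arrays (y axes, linear intensity units from 0), with FL478 salt, FL478 control, IR29 salt and IR29 control along the x axis, 1 dot per array and a bar for mean ± SD. Salt arrays lie below control arrays for CSLD1 and above them for CSLD2 in both genotypes, CSLC2 separates the genotypes under salt, and BC1L9 and CSLF2 have arrays of one group far apart, such as 2095 and 5293 for BC1L9 in IR29 under salt.

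Genes that work beside cellulose synthesis were read from lists drawn by name, and none of their members was called in any comparison. The 17 genes of cellulose supply and trimming comprised 6 sucrose synthases, which feed UDP-glucose to the synthases, and 11 endoglucanases (GLU), a family that holds the membrane-bound enzyme needed for cellulose synthesis in Arabidopsis. In FL478, 10 of the 17 had a higher mean under salt, and in IR29, 11, beside 50.1% and 50.4% of all probe sets. SUS3 had the smallest p of the list, with 164, 179.8 and 427 in FL478 under salt, against 1256, 620.0 and 734 in FL478 control, and 744, 566 and 1413 in IR29 under salt, against 601 and 685 in IR29 control. It was lower under salt in FL478 by arrays that did not overlap (-1.69 ± 0.41, unadjusted p = 0.0021, adjusted p = 0.224), and lower in FL478 than in IR29 under salt (-1.71 ± 0.41, unadjusted p = 0.00195, adjusted p = 0.105). GLU13 gave 0.58 ± 0.28 in FL478, 0.55 ± 0.31 in IR29 and 0.57 ± 0.21 averaged over both (unadjusted p = 0.0223, adjusted p = 0.379). For GLU1 the averaged value was 0.33 ± 0.14 (unadjusted p = 0.0442, adjusted p = 0.469), and for GLU12 the IR29 value was -0.59 ± 0.32.

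Xylan and lignin fill the secondary wall around cellulose. Of 9 xylan genes, 8 had a higher mean in FL478 than in IR29 under salt (median 0.28), where 48.8% of all probe sets did, and for 5 the arrays were apart, beside 7.86% of all probe sets and 9.96% of those above the median level. IRX9L and IRX14, which are among these 5, and GT43E have probe sets of kinds that can share sequence with other genes. GT43C, which bears the synonym IRX9, had 299.5, 261.5 and 391 in FL478 under salt, against 132, 230.5 and 144 in FL478 control, and 187, 214 and 146 in IR29 under salt, against 94.8 and 116 in IR29 control. Salt arrays were above control arrays in each genotype (0.81 ± 0.23 in FL478, unadjusted p = 0.00489, adjusted p = 0.293, and 0.63 ± 0.25 in IR29, unadjusted p = 0.0314, adjusted p = 0.752). GT43G differed by -0.41 ± 0.19 for salt in FL478 and IRX14 by -0.21 ± 0.22 in IR29.

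Of 22 lignin genes, 20 had a higher mean in FL478 than in IR29 in control (median 0.31), and 13 under salt (median 0.06). LAC24, a laccase, had 29.3, 116 and 128 in FL478 under salt, against 611.5, 325 and 582 in FL478 control (-2.20 ± 0.48, unadjusted p = 0.00104, adjusted p = 0.188). In IR29 it had 102.5, 88 and 258.9 under salt, against 288.8 and 110.1 in control, with a lower mean under salt and overlapping arrays. CAD6, named as a cinnamyl alcohol dehydrogenase, had 237, 251 and 302 in FL478 under salt, against 627, 557 and 1138 in FL478 control (-1.39 ± 0.42, unadjusted p = 0.00825, adjusted p = 0.337). Its IR29 signals were 194.7, 148.1 and 387.5 under salt, against 539.7 and 178.2 in control, again with a lower mean under salt and overlapping arrays. CAD7 was lower under salt in both genotypes, at -0.54 ± 0.21 in FL478 (unadjusted p = 0.0285, adjusted p = 0.479) and -0.89 ± 0.24 in IR29 (unadjusted p = 0.00356, adjusted p = 0.488), at signals of 4.9 to 76.2. LAC20 gave 0.55 ± 0.29 for salt in IR29 (adjusted p = 0.86), at signals of 3.7 to 38.9 over all arrays. No symbol or synonym matched the list of secondary wall regulators, and the share of xylem in the samples was not measured.

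Of other cell types, the 5 genes listed for the endodermis (CASP1, Lsi1, Lsi2, SCR1 and SHR1) summed to 49106 to 51540.5 in FL478 under salt against 50180.6 to 54082.5 in FL478 control, and to 43695 to 53773.5 in IR29 under salt against 56636 to 57340.0 in IR29 control. All IR29 salt sums were below the IR29 control sums. Most of each sum came from the silicon transporters Lsi1 and Lsi2. Whether the sum follows the amount of endodermis is not known from these data. In IR29, 4 of the 5 had a lower mean under salt and 1 a higher one, with arrays apart for 2 lower and 1 higher, beside 21.4% of all probe sets in either direction. Lsi2 was lower (-0.70, unadjusted p = 0.00443, adjusted p = 0.512) and so was CASP1 (3776.5, 3695.8 and 3142.3 under salt, against 4206.5 and 5166.3 in control), both by arrays that did not overlap. SCR1, at signals of 94.2 to 175, gave 0.35 in IR29 (unadjusted p = 0.118, adjusted p = 0.896), with arrays apart in the other direction. The part of the endodermis in the CESA and CSL values was not tested. The 4 genes of green shoot tissue summed to 237.5 to 749.6 over all arrays. Of these, rbcS read 107.6 to 241.1 and CAB2R 88 to 519.5, both above 32 on every array, with 97.9, 519.5 and 358.9 for CAB2R in FL478 control. RBCS1 was under 32 on every array, with a highest signal of 13.5, and rca read 1.7 to 54. The part of shoot RNA in the values was not tested.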

How the data were processed

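RNA of 11 root tip samples was measured on the Affymetrix Rice Genome Array. The authors deposited signal intensities on a linear scale, made with GCOS (version not given in the sources used here), scaled to one 2% trimmed mean per array (500.1). The RMA values on which the study ran SAM were not used here. Of 57381 probe sets, 123 controls were left out. Values were taken to log2(signal + 32) with no further normalization and fitted in limma 3.58.1 (R 4.3.3) with 1 mean per group, adjusted by Benjamini-Hochberg over 57258 probe sets and called under 0.10, the study's false discovery rate. Tables and figures were made with Python 3.11.15, pandas 2.3.3, numpy 2.4.6, scipy 1.17.1 and matplotlib 3.10.9.

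A supplied annotation gave 1 gene to 22436 probe sets, several to 95 and none to 34727. Where a gene had several probe sets, as 7 of the 34 genes did, the brightest stood for it. Levels were not compared between genes. The genes and lists were chosen with earlier results of these data known. Named were all CESA genes and BC1, the 2 brightest of each CSL and COBRA-like family, every gene called or with an unadjusted p under 0.05, and of other lists the 2 with the smallest p per salt comparison. Other genes of the set, and GLU and SUS values outside this rule, are named to account for every member. RefSeq names are from assembly ASM3414082v1, used for names and the order of neighbouring genes alone, with no coordinate printed since the array's build is not named. The fit was tested on simulated data of 57258 probe sets, where false calls were 9.57% of calls in FL478 and 11.9% in IR29. Signal has no read depth, and the number of arrays limits the precision. The alternatives were an offset of 64, a floor of 32, quantile normalization, leaving out the dimmer part of the probe sets, an intensity trend with robust variance, the replicate number as a block, the GAPDH ratio as a covariate, only the groups compared, the mean of all probe sets of a gene, and leaving out each array in turn.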

Additional observations from a re-analysis of the deposited data

Results flagged for a closer look

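For BC1L9 the salt response differed between the genotypes by -1.99 on the log2 scale (FL478 minus IR29), with an unadjusted p of 0.0193 and an adjusted p of 1.00. The IR29 salt arrays ranged from 2095 to 5293 and the FL478 salt arrays from 1018 to 2701, and a second probe set gave -1.62. For CSLF2 the same difference was -2.01, with an unadjusted p of 0.0346 and an adjusted p of 1.00. Its FL478 control arrays ranged from 367 to 1242.5, its IR29 control arrays read 128.8 and 409, and with 1 array left out the difference lay between -2.74 and -1.28. CSLH1 drew attention because its FL478 salt arrays were all above the FL478 control arrays and its IR29 salt arrays all below the IR29 control arrays, and the difference of its responses was 0.39 (unadjusted p = 0.10, adjusted p = 1.00). Over all probe sets 4.53% had an unadjusted p under 0.05 for this difference and none had an adjusted p under 0.10 in limma.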

How the results depend on the processing

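Averaged over both genotypes, no gene of the set was called for salt against control, while 1 was with an offset of 64 (CSLA5), 1 with a floor of 32 (CSLA5), 2 among probe sets above the median level (CSLA5 and CSLD1) and 1 with the replicate number as a block (CSLD1). Between the genotypes in control, the 1 call (CESA5) became 0 with the block and with only the groups compared, and ranged from 0 to 1 with 1 array left out. Under salt, the 2 calls (CESA5 and CSLC2) became 3 with an offset of 64 and 3 without the dimmer probe sets (adding CSLH1 each time), 4 with a floor of 32 (with CESA8 and CSLH1), 4 with an intensity trend and robust variance (with CESA1 and CSLH1), 1 with the block, 1 with the GAPDH ratio as a covariate (CESA5 in both), 0 with only the groups compared, and 1 to 3 with 1 array left out. The causes of these shifts were not tested, except that a fit of only the groups compared has fewer arrays to estimate the spread. The median over the 34 genes under salt (FL478 minus IR29, 0.19) was 0.28 with the GAPDH covariate. With 1 array left out the medians ranged from 0.11 to 0.33 for that comparison, from 0.025 to 0.16 in control, from 0.09 to 0.21 for salt in FL478, from -0.025 to 0.12 for salt in IR29, from 0.040 to 0.16 for salt over both and from 0.047 to 0.20 for the difference of the responses. Where IR29 control kept 1 array, that array was assumed to vary like the other groups. Of the 85 single-gene differences recomputed, 17 changed sign when some 1 array was left out, 10 changed sign under another alternative, and none of these was a called value. In size, 51 moved by over 1.5 times with 1 array left out and 40 under another alternative, none of them called. With 1 array left out, the differences that changed sign ranged as follows. For salt in FL478 they were -0.048 to 0.35 for CESA5, -0.34 to 0.039 for CESA9 and -0.11 to 0.24 for BC1. For salt in IR29 they were -0.031 to 0.53 for CESA4, -0.46 to 0.42 for CESA2 and -0.090 to 0.46 for BC1. For salt over both they were -0.034 to 0.090 for CESA1, -0.019 to 0.42 for CESA2, -0.081 to 0.12 for CESA9 and -0.025 to 0.25 for BC1. Between the genotypes in control they were -0.44 to 0.44 for CESA2, -0.047 to 0.051 for CESA8 and -0.090 to 0.29 for CESA7. For the difference of the responses they were -0.24 to 0.17 for CESA5, -0.31 to 0.25 for CESA4, -0.080 to 0.30 for CESA7 and -0.42 to 0.13 for BC1. The GAPDH covariate turned CESA1 (0.031) and CESA7 (-0.059) for salt in IR29, CESA9 for salt over both (-0.13) and CESA2 in control (0.018). The block turned CESA2 for salt in IR29 (0.12) and in control (0.15), CESA1 (-0.0063) and CESA9 (-0.0089) for salt over both, CESA8 in control (-0.00024) and CESA5 for the difference of the responses (0.0094). The mean of all probe sets turned CESA2 under salt (-0.15) and for salt in IR29 (0.11), CESA1 for salt over both (-0.094) and CESA4 for the difference of the responses (0.062). Quantile normalization turned CESA9 for salt over both (-0.010), CESA2 in control (0.029) and CESA8 in control (-0.024), and a floor of 32 turned CESA2 in control (0.0037). The labels give the replicates a number and do not say what arrays of the same number share. Of 15 same-numbered pairs of arrays, 5 had a correlation of deviations over 0.1 (range -0.07 to 0.19), and the block moved calls as given. Pairs with different numbers were not compared, so a shared replicate effect was not tested.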
